A study of Mus musculus with 2 samples.

Results

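The genes described here make cholesterol and related sterols, sense and move sterols, build fatty acids, or export sterols from the cell. They are 36 named genes, grouped as 18 sterol synthesis enzymes, 5 sterol sensors and regulators, 3 sterol transport genes, 8 fatty acid enzymes and 2 sterol efflux transporters. A probe was matched to 33 of the 36, and all 33 were detected, meaning that on each array the same pool, mutant or wildtype, gave a signal well over background, out of 25853 genes detected in all. No probe was matched to Fdft1, Insig1 or Scd2, which were not analysed here. The list was selected on known roles and on the log2 ratios of this same comparison, which were in view when it was drawn up, so those ratios are given as a description, without a test.

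The mutant sample was RNA from the posterior parts of embryos heterozygous for Cdx2 and lacking Cdx4 (Cdx2+/-Cdx4-/-), cut at the level of the last somite boundary at 13 somites and pooled from 7 embryos. The other sample was the same tissue from 7 wildtype embryos of that stage. Each of 2 dual-colour arrays compared the pools, with the mutant pool in Cy5 on replicate 1 and in Cy3 on replicate 2. The arrays were read as 1 pool per genotype measured in both dye orientations, so the SD given below is that of the 2 arrays and is technical. There is no biological replicate check and no p-value between genotypes. In pooled tissue, fewer cells of a type and less RNA per cell cannot be told apart.

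Cholesterol is built from acetyl-CoA through mevalonate and farnesyl diphosphate to squalene, which is closed to lanosterol and then trimmed to cholesterol. When membrane sterol is low, the escort protein SCAP carries SREBP transcription factors to the Golgi, where they are cleaved and then raise transcription of these enzymes, while INSIG proteins hold them back when sterol is plentiful. Liver X receptors respond to excess sterol and raise the efflux transporters. In the embryo, cholesterol also modifies Hedgehog ligands, and loss of late pathway enzymes causes malformations.

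The arrays detected Cdx4 at 7.00 and 7.49 in the mutant pool on replicates 1 and 2, against 9.61 and 9.92 in the wildtype pool. These levels are normalised log2 intensities, after background correction, loess and scaling of the arrays to the same brightness. The Cdx4 log2 ratio was -2.52 ± 0.12 (SD of 2 arrays). Cdx2, of which the mutant embryos carry a single intact allele, was read from the brighter of 2 detected probes. It had 7.45 and 7.19 in the mutant pool against 7.44 and 7.30 in the wildtype pool. Its log2 ratio of -0.05 ± 0.09 showed no reduction with this probe, and it was -0.07 with a smaller background offset. Whether the Cdx2 and Cdx4 probes lie in the altered part of each gene was not determined. All 6 markers of the posterior embryo were detected, with mean levels from 6.60 to 12.33 in the mutant pool and from 6.58 to 12.83 in the wildtype pool. The 4 head markers were also detected. Their mean levels ran from 6.35 to 8.46 in the mutant pool and from 6.43 to 8.45 in the wildtype pool. Of the 32750 named genes with a probe, 25853 were detected, so whether head tissue was present is not read from this. Among the posterior markers, T had a log2 ratio of -0.49 ± 0.03 and Wnt3a one of -0.46 ± 0.05, and the median over the 6 was -0.05. Over all detected genes the median log2 ratio was 0.00, the middle 50% lay between -0.07 and 0.06, and the middle 98% lay between -0.42 and 0.35.

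Most sterol synthesis genes had log2 ratios below 0, few of them past 1.5-fold on both arrays. Of 17 detected enzymes, 16 had a log2 ratio below 0 on both arrays, against 24.4% of all detected genes, and 1 was above 0 on both, against 23.3%. The median over the 17 was -0.44, with -0.35 on replicate 1 and -0.36 on replicate 2. Only Msmo1 and Fdps passed the size rule, which asks for 1.5-fold in the same direction on each array (a log2 ratio of 0.585 in size). That is 2 of 33 members lower and 0 higher, where 0.232% of all detected genes passed as lower, 0.209% as higher and 0.441% in either direction. With 1.3-fold on each array, 7 of the 33 members passed as lower, 6 of them sterol synthesis genes, against 0.75% of all detected genes, and 0 passed as higher, against 0.538%. With 2-fold, 0 members passed as lower, against 0.0271% of all detected genes, and 0 as higher, against 0.0774%. The ratios had been used in choosing the members, so nothing is read from these counts. Among all detected genes ordered by mean log2 ratio, 10 of the 17 lay in the lowest 1% and 13 in the lowest 5%.

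The count of 16 depended on the normalization. With median centring in place of loess, 8 of the 17 were below 0 on both arrays, against 8.51% of all detected genes, while the median of the 17 was -0.48. Median centring removed both calls: Fdps then had -0.28 on replicate 1 and -1.34 on replicate 2, and Msmo1 had -0.48 and -1.43. Under each of the 5 other alternatives that used both arrays, 16 of the 17 were below 0 on both.

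**Figure D1:**
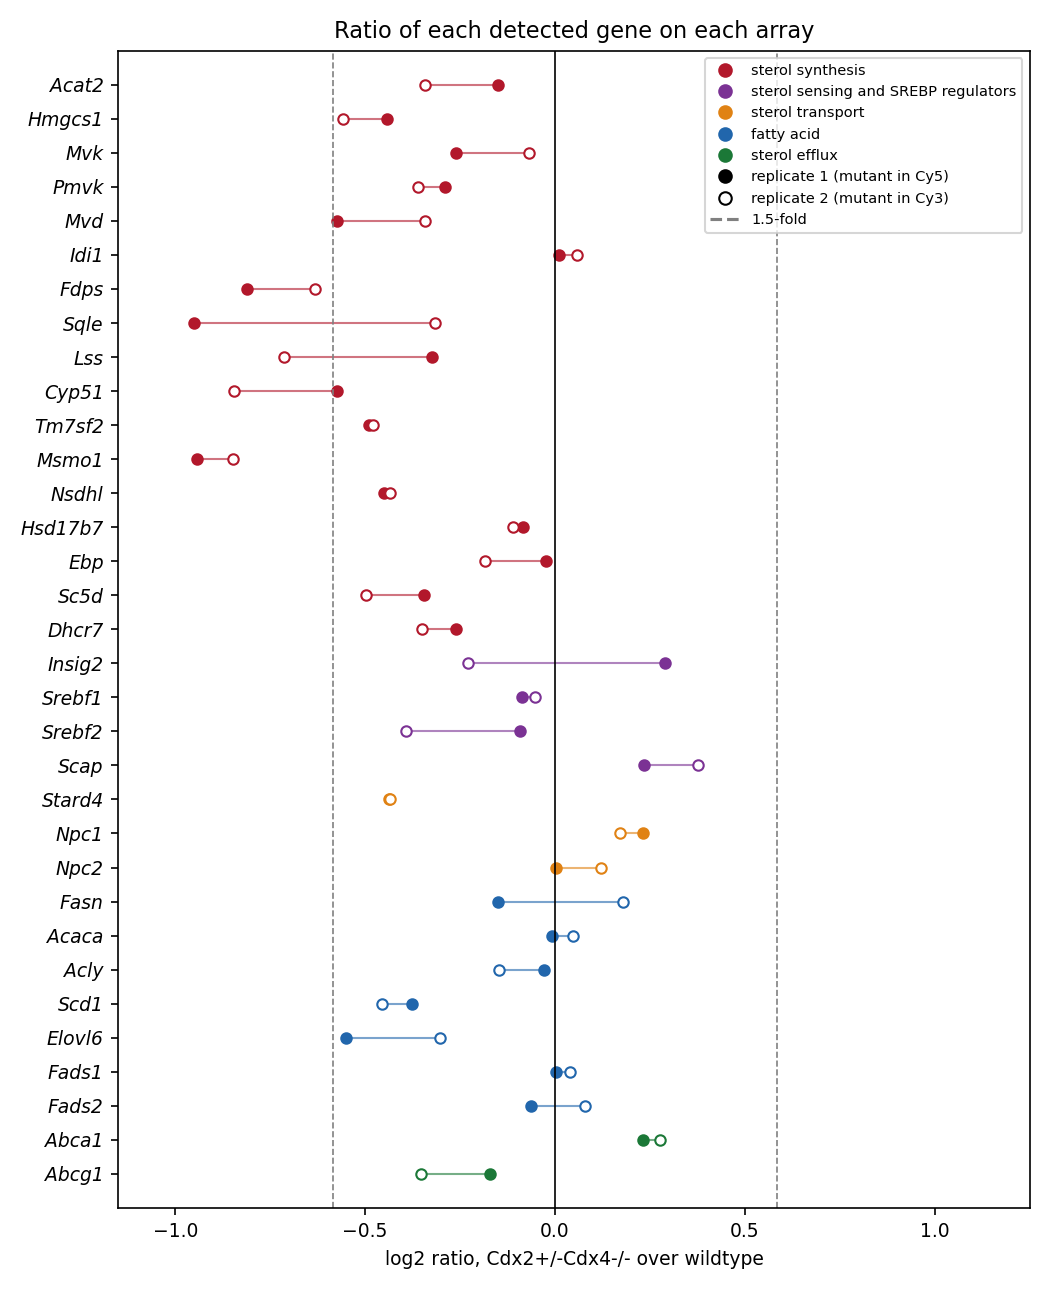
Log2 ratio of the Cdx2+/-Cdx4-/- pool over the wildtype pool (x axis) for each of the 33 detected genes (y axis), with a filled point for replicate 1 and an open point for replicate 2 and dashed lines at 1.5-fold. Of the 17 sterol synthesis genes, 16 lie left of 0 on both arrays, and Msmo1 and Fdps lie left of the dashed line on both.

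The first steps turn acetyl-CoA into farnesyl diphosphate, the branch point for sterols and prenyl groups. Their 7 detected enzymes had a median log2 ratio of -0.33, from -0.72 for Fdps to 0.03 for Idi1. Hmgcs1, the synthase that makes HMG-CoA, had a level of 12.26 and 12.00 in the mutant pool on replicates 1 and 2, against 12.71 and 12.56 in the wildtype pool. Both mutant values lay below both wildtype values, and the log2 ratio was -0.50 ± 0.08. The decarboxylase gene Mvd had 8.29 and 8.51 in the mutant pool against 8.86 and 8.86 in the wildtype pool, a log2 ratio of -0.46 ± 0.16. The phosphomevalonate kinase gene Pmvk had 10.12 and 10.19 in the mutant pool against 10.41 and 10.55 in the wildtype pool, with a log2 ratio of -0.33 ± 0.05. The pools did not overlap for either gene. How many of all detected genes also show no overlap was not counted, so nothing is read from it for these or other members.

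Fdps, the farnesyl diphosphate synthase, fell. Its level was 11.67 and 11.40 in the mutant pool on replicates 1 and 2, against 12.48 and 12.03 in the wildtype pool. The mutant pool was 1.65-fold lower, with log2 ratios of -0.81 and -0.63 on the arrays and a mean of -0.72 ± 0.13. The probe lies at chr10:93552321-93552380 in the files' coordinates, whose genome build is not named, while the RefSeq table places Fdps on chromosome 3. The 4 Fdps probes, all on chromosome 10 in the files, had mean log2 ratios of -0.72, -0.61, -0.53 and -0.40 from the brightest to the dimmest. All 4 were below 0 on both arrays, but the median over probes, -0.58, did not pass the size rule. Whether these probes also pick up a copy of the gene was not tested.

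The other enzymes of these steps differed less. Acat2, the cytosolic thiolase at the start, had log2 ratios of -0.15 and -0.34 on replicates 1 and 2, a mean of -0.25 ± 0.14, and its probe could share signal with the closely related Acat3. Mevalonate kinase, Mvk, had -0.26 and -0.07, with a mean of -0.16 ± 0.14, close to the spread between the arrays. Idi1, the isopentenyl diphosphate isomerase, stood apart from its neighbours. Its level was 7.14 and 7.16 in the mutant pool and 7.12 and 7.10 in the wildtype pool, and its log2 ratio of 0.03 ± 0.03 was the only one above 0 on both arrays among the 17. Idi1 also had the lowest mean level of the 17 in both pools, from a single probe. Ratios of dim genes shrink with a larger offset, and why its ratio was near 0 was not tested.

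Squalene is then oxidised by squalene epoxidase, Sqle, and closed by lanosterol synthase, Lss. Sqle had a level of 10.71 and 11.28 in the mutant pool on replicates 1 and 2, against 11.66 and 11.60 in the wildtype pool. The pools did not overlap, but the arrays differed in size, with log2 ratios of -0.95 and -0.31 and a mean of -0.63 ± 0.45. The dimmer Sqle probe was steadier, at -0.45 and -0.42. Lss had 7.49 and 7.53 in the mutant pool against 7.82 and 8.24 in the wildtype pool, a mean log2 ratio of -0.52 ± 0.27. Both genes reached 1.5-fold on a single array, Sqle on replicate 1 and Lss on replicate 2.

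From lanosterol onward, all 8 detected enzymes were below 0 on both arrays, with a median log2 ratio of -0.43. Msmo1, the methylsterol monooxygenase, listed in the files under its earlier name Sc4mol, fell. Its level was 9.44 and 9.19 in the mutant pool on replicates 1 and 2, against 10.39 and 10.04 in the wildtype pool. The mutant pool was 1.86-fold lower, with log2 ratios of -0.94 and -0.85 and a mean of -0.89 ± 0.07. Its single probe lies at chr8:63645086-63645145 in the files' coordinates. Cyp51, the lanosterol demethylase, came just short of the size rule. It had 8.14 and 7.72 in the mutant pool against 8.72 and 8.56 in the wildtype pool, with log2 ratios of -0.57 and -0.85 and a mean of -0.71 ± 0.19. Cyp51 passed with a smaller background offset and with the scanner software's own ratio.

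A further 4 late enzymes had smaller ratios, nearly equal between the arrays for Tm7sf2 and Nsdhl. The sterol reductase gene Tm7sf2 had 6.78 and 7.62 in the mutant pool on replicates 1 and 2, against 7.27 and 8.10 in the wildtype pool. Its level moved between arrays more than between pools, so the pools overlap in level, yet within each array the mutant pool was lower, by log2 ratios of -0.49 and -0.48. Nsdhl, a dehydrogenase that acts with Msmo1 in removing methyl groups, had 7.55 and 7.58 in the mutant pool against 7.996 and 8.02 in the wildtype pool, a log2 ratio of -0.44 ± 0.01. The desaturase gene Sc5d had 8.22 and 8.28 in the mutant pool against 8.57 and 8.77 in the wildtype pool, a log2 ratio of -0.42 ± 0.11. Dhcr7, the reductase of the last step from dehydrocholesterol, had 9.04 and 9.02 in the mutant pool against 9.30 and 9.37 in the wildtype pool, a log2 ratio of -0.31 ± 0.06. None of these 4 passed the size rule at 1.5-fold, and Tm7sf2 and Nsdhl passed at 1.3-fold. Close arrays did not make these values firm. Without background subtraction both Tm7sf2 and Nsdhl had a mean of -0.37. With the scanner software's ratio they had -0.72 and -0.62, and Tm7sf2 then passed at 1.5-fold.

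The remaining late enzymes were near 0. Hsd17b7, the ketosteroid reductase that works with Msmo1 and Nsdhl, had a log2 ratio of -0.10 ± 0.02, and its dimmer probe had 0.04. The isomerase gene Ebp had -0.10 ± 0.11, and its dimmer probe had -0.28. Ebp and Nsdhl are on the X chromosome. For Xist, also X-linked, the mutant signal did not clear background on replicate 1 or 2, and the mutant pool was lower by at least 3.95-fold. The Y-linked genes had a median log2 ratio of 0.45, and 3 of the 4 detected lay above 0 on each array. The part of a different share of the sexes in the Nsdhl value was not tested.

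**Figure D2:**
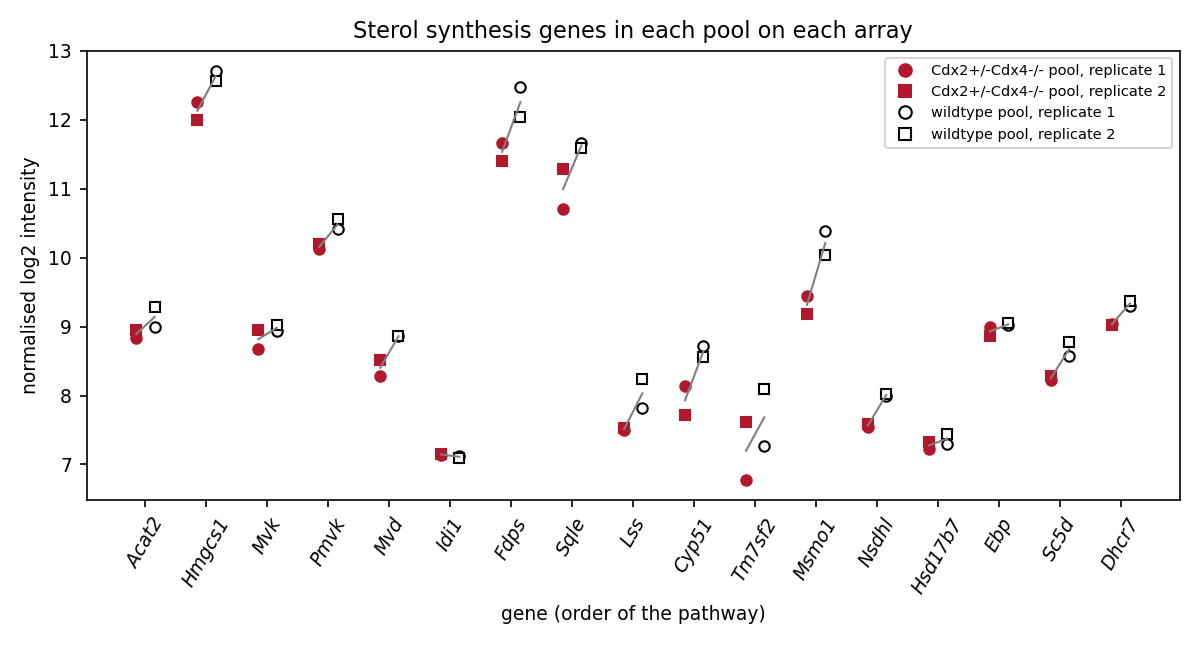
Normalised log2 intensity (y axis) of the 17 sterol synthesis genes in pathway order (x axis), with filled red points for the Cdx2+/-Cdx4-/- pool, open points for the wildtype pool, circles for replicate 1 and squares for replicate 2, and grey lines joining the means. The line climbs to the wildtype pool for each gene except Idi1, where the means are 7.15 in the mutant pool and 7.11 in the wildtype pool.

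Genes measured by more than 1 detected probe gave a further look at single values. Of the 7 such members, Fdps, Sqle, Mvd and Ebp had each detected probe below 0 on both arrays. The dimmer Mvd probe had a mean of -0.23 against -0.46 for the brighter one. Hsd17b7 changed sign between its probes. Insig2 had opposite signs on the arrays with each of its probes.

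**Figure D3:**
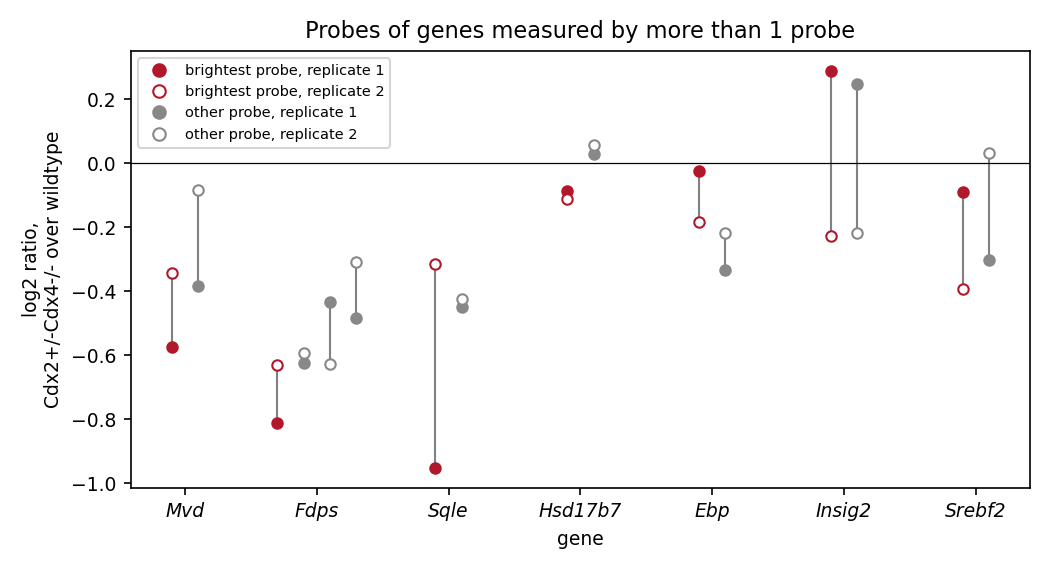
Log2 ratio of the Cdx2+/-Cdx4-/- pool over the wildtype pool (y axis) for each detected probe of the 7 genes with more than 1 (x axis), brightest probe in red and others in grey, with filled points for replicate 1 and open points for replicate 2. The 4 Fdps probes lie between -0.31 and -0.81 on single arrays.

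The promoters of the sterol genes are shown because known SREBP sites work beside boxes for the factor NF-Y. RefSeq promoters of GRCm38.p6, from 250 bases before to 50 after a start, were found for 27 of the 36 genes, 15 of them sterol synthesis genes and Fdps not among them. The 250 bases before the start are printed for Msmo1, Cyp51 and Hmgcs1, which were lower in the mutant pool, and for Idi1, which was not. Capitals mark CCAAT, the NF-Y box, or TCACNCCAC, a form of the sterol regulatory element, on either strand. The windows are chr8:64733579-64733828 on the minus strand for Msmo1, chr5:4104698-4104947 on the minus strand for Cyp51, chr13:119690101-119690350 on the plus strand for Hmgcs1 and chr13:8885356-8885605 on the plus strand for Idi1.
Msmo1: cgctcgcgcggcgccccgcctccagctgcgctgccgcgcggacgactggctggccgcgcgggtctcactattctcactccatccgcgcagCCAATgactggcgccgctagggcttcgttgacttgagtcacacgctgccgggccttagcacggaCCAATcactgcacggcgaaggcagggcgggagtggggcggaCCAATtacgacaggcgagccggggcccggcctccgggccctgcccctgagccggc
Cyp51: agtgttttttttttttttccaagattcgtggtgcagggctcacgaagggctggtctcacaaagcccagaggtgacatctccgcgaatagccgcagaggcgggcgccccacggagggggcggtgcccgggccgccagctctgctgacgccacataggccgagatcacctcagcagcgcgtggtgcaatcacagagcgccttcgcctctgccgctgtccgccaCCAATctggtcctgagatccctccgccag
Hmgcs1: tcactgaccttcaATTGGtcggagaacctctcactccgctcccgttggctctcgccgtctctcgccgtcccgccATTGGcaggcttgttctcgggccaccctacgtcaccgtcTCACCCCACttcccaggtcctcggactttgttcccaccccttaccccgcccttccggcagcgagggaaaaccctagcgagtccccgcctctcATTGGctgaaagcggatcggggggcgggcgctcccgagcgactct
Idi1: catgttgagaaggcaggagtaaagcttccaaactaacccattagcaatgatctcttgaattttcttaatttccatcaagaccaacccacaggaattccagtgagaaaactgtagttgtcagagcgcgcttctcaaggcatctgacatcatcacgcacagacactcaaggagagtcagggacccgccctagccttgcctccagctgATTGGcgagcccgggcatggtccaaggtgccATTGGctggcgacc

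CCAAT was present on either strand in 14 of 15 sterol synthesis genes with a promoter (93.3%), against 41.1% of all 27025 genes with one. By promoter, 14 of 18 (77.8%) held it, against 37.4% of all 32851 promoters. The GC box GGGCGG was also in 14 of the 15, against 38.2% of all genes. Idi1, dim and with a ratio near 0, held 2 CCAAT matches before its start, and Msmo1 held 3. TCACNCCAC was found only in Hmgcs1 among the 15, at -137 to -129 from the start, against 1.44% of all genes. Other spellings of the sterol regulatory element were not searched, so the other promoters, Cyp51 among them, are not shown to lack one. Among 5 fatty acid genes with a promoter, CCAAT was in 2, Acly and Fasn. AGGTCA repeated exactly after a gap of 4 bases, a form of the element bound by liver X receptors, was in 0 of the 27 member genes. It was in only 4 of all 27025 genes, and looser forms were not searched. So rare a match could hardly be met among 27 genes, so nothing is read from its absence. Overlapping matches were each counted, and a match is a description of letters, not a bound site.

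The sensors and regulators did not move together. Their median log2 ratio was -0.02 over 4 detected genes, with 0.07 on replicate 1 and -0.14 on replicate 2, and 0 passed the size rule. Srebf2, the SREBP gene tied most to sterol synthesis, had a level of 11.10 and 10.83 in the mutant pool on replicates 1 and 2, against 11.19 and 11.22 in the wildtype pool. Its log2 ratio of -0.24 ± 0.21 was close to the spread between arrays, and its dimmer probe had opposite signs on the arrays, -0.30 and 0.03. Srebf1, tied more to fatty acid synthesis, had 10.18 and 10.18 in the mutant pool against 10.27 and 10.23 in the wildtype pool, a log2 ratio of -0.07 ± 0.03. Scap, the SREBP escort, was on the other side of 0. It had 11.81 and 11.96 in the mutant pool against 11.57 and 11.58 in the wildtype pool, a log2 ratio of 0.30 ± 0.10, above 98.6% of detected genes. Insig2, which retains SREBP in the endoplasmic reticulum, had 0.29 on replicate 1 and -0.23 on replicate 2.

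Among the transport genes, Stard4 sided with the enzymes. Stard4, a carrier of sterol through the cytosol and itself a known SREBP target, had 7.68 and 7.65 in the mutant pool on replicates 1 and 2, against 8.12 and 8.09 in the wildtype pool. The pools did not overlap, and the log2 ratio was -0.44 on each array to within 0.01, past 1.3-fold and short of 1.5-fold. Its mean was -0.36 without background subtraction and -0.57 with the scanner software's ratio. Npc1 and Npc2, which move cholesterol out of lysosomes, had log2 ratios of 0.20 ± 0.04 and 0.06 ± 0.08. For Npc1 the mutant pool had 7.18 and 7.08 against 6.95 and 6.91 in the wildtype pool.

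Fatty acid enzymes were mixed. Over 7 detected genes the median log2 ratio was 0.01, with -0.06 on replicate 1 and 0.04 on replicate 2, and 3 of the 7 were below 0 on both arrays. The lower pair were Elovl6 and Scd1, an elongase and a desaturase acting after palmitate is made. Elovl6 had 10.16 and 10.13 in the mutant pool on replicates 1 and 2, against 10.71 and 10.43 in the wildtype pool, a log2 ratio of -0.43 ± 0.17. Scd1 had 8.50 and 8.19 in the mutant pool against 8.87 and 8.65 in the wildtype pool, a log2 ratio of -0.42 ± 0.06. The pools did not overlap for either gene, and neither passed the size rule.

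The enzymes that supply and build palmitate lay near 0. Acly, which makes cytosolic acetyl-CoA, had a log2 ratio of -0.09 ± 0.08. Acaca, the acetyl-CoA carboxylase, listed in the files as Gm738, had 0.02 ± 0.04. Fasn, the synthase, had -0.15 on replicate 1 and 0.18 on replicate 2, so its sign changed with the array. Fads1 and Fads2, the desaturases of polyunsaturated fatty acids, had 0.02 ± 0.03 and 0.01 ± 0.10. The median of the sterol synthesis genes was thus -0.44 and that of the fatty acid genes 0.01. This difference has no test here, because there is 1 pool per genotype and genes are not replicates.

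The efflux transporters pointed in opposite directions. Abca1, which loads cholesterol onto apolipoproteins, had 8.999 and 9.18 in the mutant pool on replicates 1 and 2, against 8.77 and 8.90 in the wildtype pool. Its log2 ratio was 0.25 ± 0.03, above 97.9% of detected genes, and a dimmer Abca1 probe was not well above background. Abcg1, which exports sterol to lipoprotein particles, had 6.71 and 6.64 in the mutant pool against 6.89 and 6.99 in the wildtype pool, a log2 ratio of -0.26 ± 0.13. Neither passed the size rule.

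**Figure D4:**
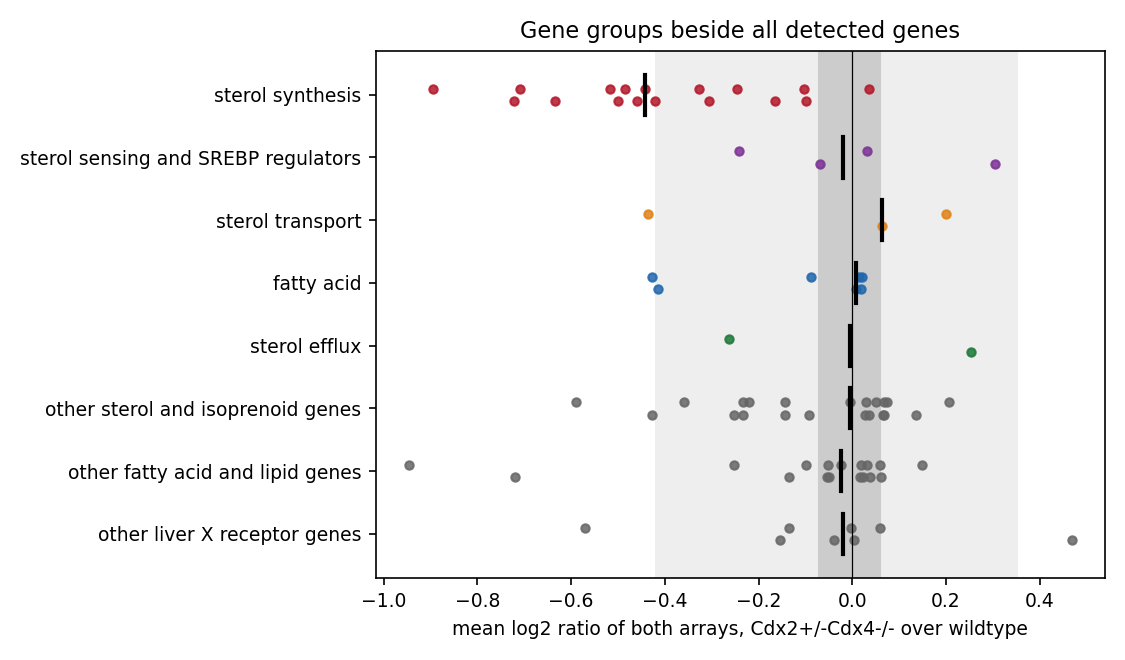
Mean log2 ratio of both arrays, Cdx2+/-Cdx4-/- pool over wildtype pool (x axis), for each detected gene (points) by group (y axis), with black bars at the medians, dark grey over the middle 50% of all detected genes and light grey over the middle 98%. The sterol synthesis median of -0.44 lies left of the light band, while the medians of the other groups lie between -0.02 and 0.06.

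Other genes of these pathways came from 3 further lists. Of 21 detected sterol and isoprenoid genes outside the 36, 0 passed the size rule in either direction, against 0.441% of all detected genes. Their median log2 ratio was -0.01. Of the 21, 8 were below 0 on both arrays and 6 were above 0 on both. The highest of the 21 was the farnesyl transferase gene Fntb, named after its value was seen, with a log2 ratio of 0.21 ± 0.02. Genes of this list that lay farther from 0, on the lower side, are not reported here.

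Of 17 detected fatty acid and lipid genes outside the 36, 2 passed as lower and 0 as higher, against 0.232% and 0.209% of all detected genes. The median log2 ratio of the 17 was -0.02. Lpl, the lipase that frees fatty acids from lipoproteins, fell: it had 8.02 and 7.65 in the mutant pool on replicates 1 and 2, against 8.86 and 8.70 in the wildtype pool. Its log2 ratio was -0.95 ± 0.15, but the dimmer Lpl probe had -0.12. With the median over probes Lpl had -0.51 and -0.56 on the arrays and did not pass. Lpin1, a phosphatidate phosphatase, fell as well, with 6.60 and 6.80 in the mutant pool against 7.28 and 7.56 in the wildtype pool, a log2 ratio of -0.72 ± 0.05. Without background subtraction Lpin1 had -0.51 and -0.56 on the arrays and did not pass. Of 8 liver X receptor genes 0 passed in either direction, against 0.441% of all detected genes, with a median of -0.02. The farthest were Mylip, a ubiquitin ligase gene, at -0.57 ± 0.06, and the partner receptor gene Rxra at 0.47 ± 0.03. Each lay on the same side of 0 on both arrays.

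Markers of other cell types were set beside the sterol result. All 9 detected of 10 endothelial markers were below 0 on both arrays, against 24.4% of all detected genes. Their median log2 ratio was -0.37. Mean levels ran from 6.52 to 9.76 in the mutant pool and from 6.90 to 10.36 in the wildtype pool. Of the 9, 2 passed the size rule as lower, against 0.232% of all detected genes. They were the tight junction gene Cldn5 at -1.06 ± 0.21 and the transcription factor gene Sox18 at -0.70 ± 0.08. Cldn5 lay farther from 0 than any of the 33 members. Of 5 detected of 6 primitive blood markers, 3 were below 0 on both arrays (median -0.10, mean levels from 6.51 to 14.16 in the mutant pool and from 6.57 to 14.13 in the wildtype pool). Of 6 detected of 7 visceral endoderm and yolk sac markers, 1 was below 0 on both arrays and the median was 0.04. None of the 5 gut endoderm markers was below 0 on both arrays, and the median was 0.05. Endothelial markers, like most sterol synthesis genes, thus had ratios below 0. Of the 6 posterior embryo markers, 2 (T and Wnt3a) were also past 1.3-fold lower on each array, against 0.75% of all detected genes. The median over the 6 was -0.05, and 1 of them lay above 0 on both arrays. The part of these markers in the sterol result was not tested.

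The members were chosen with the ratios of these same arrays in view, which by itself favours ratios that repeat, so nothing is read from the following values. Over the 33 detected members the log2 ratios of the arrays had a Pearson r of 0.76, against 0.07 over all 25853 detected genes. These are correlations across genes, which share the pools, the labelling and the normalization, and they are given as a description. The pooled SD between arrays was 0.15 for the members and 0.19 for all detected genes. With the sign of replicate 2 left unturned, so that Cy5 over Cy3 was read on both arrays, 0 members met the size rule, against 90 of all detected genes.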

How the data were processed

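Per the labels, 1 pool of embryos per genotype was hybridised on 2 arrays with dyes exchanged. The authors deposited scanner intensity values, the mean of each spot and the median of its local background in each dye, before any correction. They also deposited a log10 ratio (Cy5 to Cy3) which, per the file headers, had been detrended and LOWESS-normalized by the scanner software. That software is Agilent Feature Extraction, version 9.5.3 in the submitters' processing notes and 7.5.1 in the headers.

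Intensities were corrected with normexp (offset 50) on all 43430 spots and normalized by loess within arrays in limma 3.58.1 (R 4.3.3), control spots at weight 0, then turned to mutant over wildtype. Levels per channel were scaled between arrays by Aquantile, which leaves ratios unchanged. Spots the software marked as non-uniform were dropped, 205 from replicate 1 and 90 from replicate 2. The brightest detected probe stood for a gene. Symbols came from RefSeq accessions (19435 of 41013 probes), current symbols (3620) or synonyms with a matching chromosome (2908), 14494 probes kept the files' name, and 556 with several candidate genes stayed unnamed.

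Between 77.4% and 82.5% of the 41174 gene spots were well above background per channel. The number of arrays limits precision. Over 7 probes printed many times, the SD of the log2 ratio within an array was 0.16 and 0.23. Steps were tested on simulated data. Alternatives were no background subtraction, an offset of 16, median centring, the software's ratio, the median over probes, no detection filter, single arrays and other fold thresholds. All members are named; of the other pathway lists, genes past the size rule or the 2 farthest from 0. Some genes that this rule names are not reported here. The members and lists were chosen with earlier results of these data known.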

Additional observations from a re-analysis of the deposited data

How the results depend on the processing

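Both genotypes were measured within every array, so each log2 ratio is already a paired comparison. A single pool of each genotype leaves no replicates for a test on pairs. Dim genes, whose ratios shrink with a larger offset, and the number of arrays limit precision.

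By the size rule 2 members were lower, against 0.232% of all detected genes, and the share of all genes moved with the setting. The count was 0 with median centring (0.0619% of all detected genes), 4 with the scanner software's ratio (0.731%) and 1 with the median over probes (0.186%). It was 0 at 2-fold (0.0271%), 7 at 1.3-fold (0.75%) and 4 by the mean of both arrays (0.364%). On single arrays it was 3 on replicate 1 (1.65%) and 4 on replicate 2 (0.457%). The count of members higher was 0 under each alternative run, where from 0.0774% to 1.15% of all detected genes passed as higher. The sterol synthesis median of -0.44 was -0.37 without background subtraction, -0.50 with an offset of 16, -0.48 with median centring, -0.51 with the software's ratio and -0.42 with the median over probes, and it ranged from -0.36 to -0.35 on single arrays. The count of 16 sterol synthesis genes below 0 on both arrays, whose alternatives were chosen after seeing the data, became 8 with median centring. The efflux median of 0.00 was -0.055 with an offset of 16 and -0.099 with the software's ratio. Fatty acid, regulator and transport medians moved by less than the SD of the arrays' medians, and their signs changed under some alternatives. The calls of Fdps and Msmo1 ended with median centring, and that of Fdps also with the median over probes. The cause of these changes was not tested.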
